A study of Mus musculus with 37 samples.

Results

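Acute amphetamine was compared with saline in nuclei of parvalbumin (PV) interneurons from the mouse nucleus accumbens. The comparison rests on 8 of the 37 libraries of the series: 4 libraries of PV nuclei after amphetamine (replicates 1, 2, 3 and 4) and 4 after saline (replicates 1, 2, 4 and 5), chosen by the treatment, fraction and time in their labels. All mice were aged P60 to P210 and compound heterozygous for Pvalb-IRES-Cre and a Sun1-GFP fusion that Cre switches on and that sits in the nuclear envelope (INTACT), so that GFP marks nuclei of cells in which the Pvalb locus has driven Cre. Each mouse had a mock injection on the day before, then received saline or 3 mg/kg amphetamine intraperitoneally and spent 60 min in the open field before its accumbens was taken. Nuclei were pulled down with an anti-GFP antibody, in buffers with 5 mM sodium butyrate, an inhibitor of histone deacetylases that both groups share. Open chromatin was then read by ATAC-seq, in which the Tn5 transposase cuts accessible DNA. The supernatant of the pull-down, the unbound fraction, gave 8 further libraries at 60 min and is used here to set values beside those of PV nuclei. Another 7 libraries of PV nuclei, with 24hrPostSens in their titles, came from mice given amphetamine or saline on a schedule that is not given in the sources used here.

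Amphetamine enters dopamine and noradrenaline terminals through their transporters and makes them release transmitter, and the nucleus accumbens is where the resulting dopamine drives locomotor activity. PV interneurons are fast-spiking GABA neurons that inhibit the spiny projection neurons of this region. In stimulated neurons, calcium and cAMP signals activate CREB and SRF, which induce immediate early genes: transcription factors such as Fos, Npas4, Nr4a1 and Egr1, and effectors such as Arc. These factors later act on late response genes such as Bdnf. Chromatin at such promoters is often open before stimulation.

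The promoters of 4 of these genes are shown because they hold the core letters of the element that CREB binds and because a counted region lies on each. The capitals mark TGACG, the core of the cAMP response element, or its reverse complement CGTCA. Each sequence holds the 250 bases before a RefSeq start of the gene, 5′ to 3′ on the strand of the gene. Coordinates are on GRCm38.p6, the assembly of mm10. For Npas4, Nr4a1 and Per1 this start lies inside the gene span used for the gene counts. Per1 has a further such window, at chr11:69098699-69098948, which is not printed.
Fos: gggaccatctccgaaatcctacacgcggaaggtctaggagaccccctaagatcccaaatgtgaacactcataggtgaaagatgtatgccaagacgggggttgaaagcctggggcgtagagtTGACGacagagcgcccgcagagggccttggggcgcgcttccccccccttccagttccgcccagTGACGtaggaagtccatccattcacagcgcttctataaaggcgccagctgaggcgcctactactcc
Npas4: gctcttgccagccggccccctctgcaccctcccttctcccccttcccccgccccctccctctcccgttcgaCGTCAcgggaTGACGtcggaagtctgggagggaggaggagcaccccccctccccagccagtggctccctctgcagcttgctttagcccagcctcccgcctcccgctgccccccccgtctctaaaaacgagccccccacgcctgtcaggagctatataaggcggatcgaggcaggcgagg
Nr4a1: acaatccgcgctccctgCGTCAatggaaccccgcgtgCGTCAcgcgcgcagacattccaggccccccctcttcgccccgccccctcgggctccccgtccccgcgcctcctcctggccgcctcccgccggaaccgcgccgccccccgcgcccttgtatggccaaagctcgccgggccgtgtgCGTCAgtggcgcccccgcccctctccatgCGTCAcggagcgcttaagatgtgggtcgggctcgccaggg
Per1: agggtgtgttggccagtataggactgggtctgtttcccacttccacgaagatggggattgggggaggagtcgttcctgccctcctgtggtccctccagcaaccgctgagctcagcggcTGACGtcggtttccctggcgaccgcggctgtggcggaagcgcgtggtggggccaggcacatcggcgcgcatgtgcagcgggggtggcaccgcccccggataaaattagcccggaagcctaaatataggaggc
The Fos promoter is at chr12:85473640-85473889 on the plus strand, the Npas4 promoter at chr19:4989972-4990221 on the minus strand, the Nr4a1 promoter at chr15:101266596-101266845 on the plus strand and the Per1 promoter at chr11:69099902-69100151 on the plus strand. Searched on both strands over windows that also take in the first bases of the gene, TGACG or its reverse complement was present in 15 of 19 immediate early transcription factors and 10 of 16 immediate early effectors with a sequence, against 6228 of 27025 genes with a sequence (23%). The whole palindrome TGACGTCA was present in 1 of the 19, in 4 of the 16 and in 549 of all genes (2.03%).

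Markers of PV interneurons were higher in the pulled-down nuclei than in the unbound fraction. Pvalb, the calcium-binding protein that defines the cells, measured 44.2 to 105 CPM (counts per M counts of the library, with TMM scaling) in the 8 libraries of PV nuclei and 6.49 to 11 CPM in the unbound fraction. Kcns3, a potassium channel subunit of PV cells, measured 21.5 to 47.4 CPM against 6.34 to 9.78 CPM. The summed level of 15 PV interneuron markers differed less, at 1200 to 1800 CPM against 750 to 879 CPM. Drd2, the dopamine receptor of indirect-pathway spiny projection neurons, measured 13.1 to 26.2 CPM in PV nuclei against 48.3 to 60.6 CPM, and was thus not at 0. Endothelial and mural markers were higher in PV nuclei than in the unbound fraction, with a summed level of 223 to 370 CPM against 150 to 209 CPM. The sum of 3 cholinergic interneuron markers was also higher, at 37.2 to 71.5 CPM against 27.9 to 36.3 CPM. Of these, Chat by itself overlapped between the fractions (6.15 to 17.4 CPM against 9.14 to 17.6 CPM). Cldn5, the tight-junction protein of endothelial cells, measured 6.91, 18.6, 2.67 and 21.0 CPM in amphetamine libraries 1 to 4 and 5.71, 13.5, 37.1 and 6.75 CPM in saline libraries 1, 2, 4 and 5.

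The treatment groups were not separated by any of 18 measures of library depth, purity and signal. Total counts were 3.56, 9.38, 4.95 and 1.39 M after amphetamine (mean 4.82 ± 3.38, SD, n = 4) and 5.22, 9.25, 9.57 and 7.56 M after saline (7.90 ± 1.99, n = 4; two-sided exact permutation p = 0.171). The lowest exact permutation p of the 18 was 0.143, the smallest that 4 against 4 allow is 0.0286, and all 18 had a Benjamini-Hochberg adjusted p of 0.971. Amphetamine library 4 was the shallowest, with a count in 89.2% of regions against 96.7% to 98.9% in the other libraries, and stood apart on the second principal component of gene levels. Counts on Y-linked genes fell into a high and a low class in each treatment group: amphetamine libraries 1 and 2 and saline libraries 4 and 5 held 39.5 to 47.3 counts per M, and the other 4 held 0.865 to 15.1. The labels give no sex, and the part of this difference in the results was not tested beyond a fit with a term for it (0 calls). Counts at gene ends made up 27.1%, 34.2%, 26.4% and 28.6% of the amphetamine libraries and 27.2%, 32.7%, 34.3% and 31.5% of the saline libraries.

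**Figure D1:**
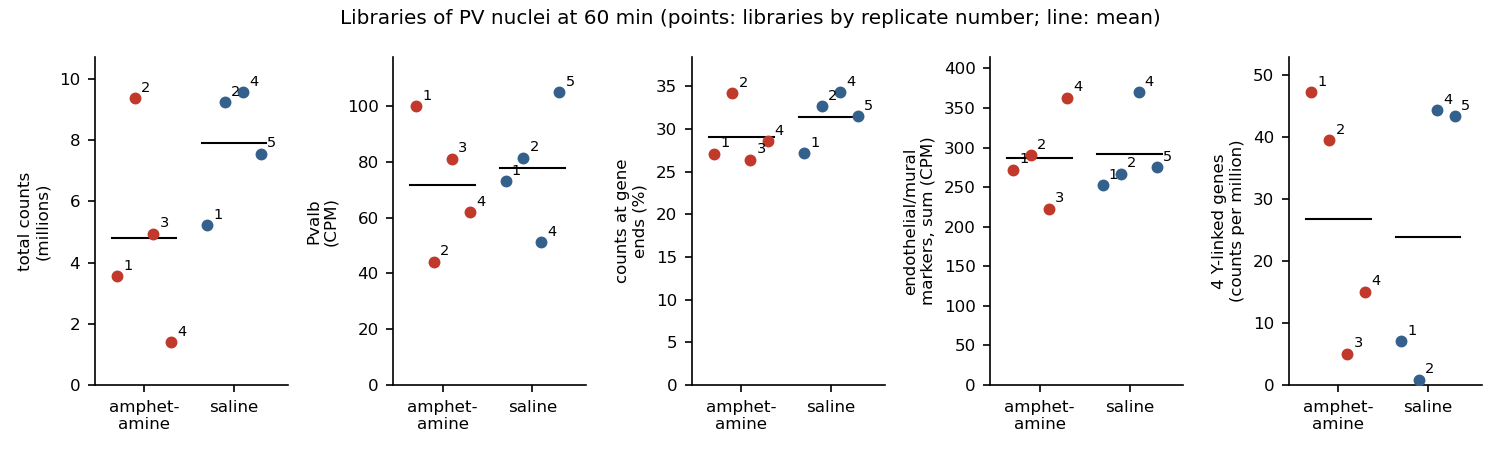
Total counts (M), Pvalb level (CPM), share of counts within 1 kb of gene ends (%), summed endothelial and mural markers (CPM) and counts on 4 Y-linked genes (counts per M) in the libraries of PV nuclei at 60 min. Points are libraries, numbered by replicate, and lines are group means; the groups overlap in every panel, and amphetamine library 4 has the lowest total, 1.39 M.

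No gene and no region differed between amphetamine and saline in PV nuclei at an adjusted p under 0.05, the threshold for a call (edgeR quasi-likelihood test, Benjamini-Hochberg). At the gene level, where counts were summed over regions in the gene body and 2 kb on either side, 0 of 16569 genes were called (0%) and the lowest adjusted p was 1. An unadjusted p under 0.05 was reached by 257 genes, 127 higher after amphetamine (0.766%) and 130 lower (0.785%). At the level of 200 bp regions, 0 of 145103 were called (0%), and an unadjusted p under 0.05 was reached by 3434, of which 2077 were higher (1.43%) and 1357 lower (0.935%). When nothing differs, a share of about 0.05 of all tests passes such a threshold. Fewer passed in these fits, 1.55% of genes and 2.37% of regions. DESeq2 also called 0 genes (267 at an unadjusted p under 0.05) and 0 regions (4936). Leaving out single libraries left both counts of calls at 0. It moved the number of genes at an unadjusted p under 0.05 to 99 without amphetamine library 1, 965 without amphetamine library 2, 141 without amphetamine library 3, 1105 without saline library 1 and 97 without saline library 2. The number of regions moved by over 1.5 times without amphetamine library 2 (6048), amphetamine library 4 (6002), saline library 1 (8561) and saline library 2 (2069).

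The precision of the libraries limits what size of difference could be seen. The median standard error (SE) of the log2 fold change, which holds counting error and the spread between libraries, was 0.19 for genes and 0.46 for regions. For 14393 of the 16569 genes (86.9%) the 95% interval of the fold change lay within 2-fold in either direction, and for 9293 (56.1%) within 1.5-fold. Of the 5173 genes with a log2 CPM of 6 or more, 99.8% had an interval within 2-fold, against 4.11% of the 584 genes under a log2 CPM of 2. Regions were less well measured, with an interval within 2-fold for 22.5% and within 1.5-fold for 2.82%. As nuclei were read in bulk, fewer nuclei with an open region and less opening per nucleus cannot be told apart.

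Immediate early transcription factors gave no call in PV nuclei. All 24 of the list were tested, 0 were called and 0 had an unadjusted p under 0.05. Their median log2 fold change (amphetamine over saline) was -0.03, against -0.0016 over all genes tested, with 9 above 0 and 15 below. The median ranged from -0.154 to 0.0636 over the other settings tried, so its sign was not stable. The 95% interval lay within 2-fold for all 24 and within 1.5-fold for 17. Over the 102 regions of these genes, 0 had an unadjusted p under 0.05 and were higher, and 2 were lower (1.96%, against 2.17% of the tested regions of all genes).

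Fos, the AP-1 subunit most used as a mark of neuronal activity (chromosome 12, 85473890 to 85477274), measured 45.5, 66.0, 55.8 and 71.3 CPM after amphetamine and 39.5, 88.5, 66.4 and 57.1 CPM after saline. The amphetamine values lay inside the range of the saline values. The log2 fold change was -0.10 ± 0.21 (SE), with a 95% interval of -0.55 to 0.36 (adjusted p = 1). Fosb, the AP-1 subunit whose stable splice form accumulates under repeated psychostimulants, measured 85.9, 104, 77.2 and 130 CPM against 88.8, 135, 117 and 91.6 CPM (log2 fold change -0.15 ± 0.17).

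Npas4, a factor induced by calcium entry in neurons, measured 85.5, 88.9, 84.9 and 76.8 CPM after amphetamine and 92.8, 110, 75.6 and 105 CPM after saline. Of the amphetamine libraries, all lay below 3 of the 4 saline libraries, and saline library 4 was the lowest of the 8. The log2 fold change was -0.18 ± 0.14, with an interval of -0.47 to 0.11. Nr4a1, an orphan nuclear receptor, measured 40.4, 63.0, 43.8 and 47.5 CPM against 39.2, 41.8, 55.6 and 39.7 CPM (0.15 ± 0.18), and the groups overlapped. Egr1, a zinc-finger factor, measured 75.3, 124, 92.1 and 96.9 CPM against 95.3, 111, 123 and 106 CPM (-0.16 ± 0.15).

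The members with the lowest p of this list were Atf3 and Egr4, neither of which was called. Atf3, a stress-induced factor of the ATF/CREB family, measured 30.6, 38.4, 29.9 and 50.3 CPM after amphetamine and 29.0, 56.9, 53.5 and 49.3 CPM after saline (log2 fold change -0.39 ± 0.22, unadjusted p = 0.0959). Egr4 measured 22.2, 26.0, 21.4 and 17.4 CPM against 20.8, 18.7, 16.4 and 13.3 CPM (0.36 ± 0.22, unadjusted p = 0.116).

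**Figure D2:**
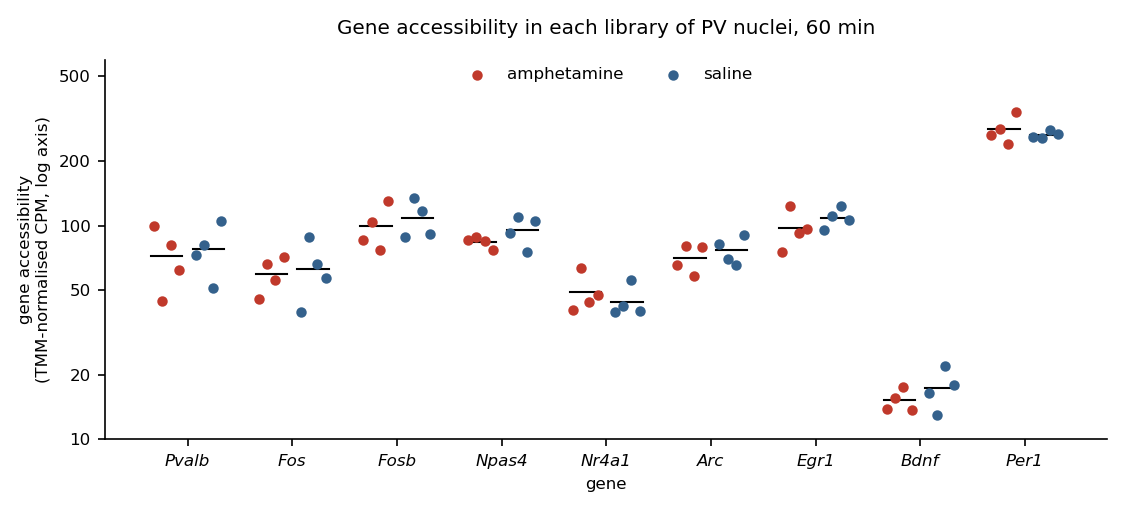
Gene accessibility (CPM, log axis) of Pvalb, 7 immediate early or clock genes and Bdnf in each library of PV nuclei at 60 min. Points are libraries and lines are group means; in each gene the amphetamine and saline libraries overlap, as for Fos with 45.5 to 71.3 CPM against 39.5 to 88.5 CPM.

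At the promoters printed above, the counted regions overlapped between the groups. The region at chr12:85473847-85474046, which spans the start of Fos, measured 12.8, 15.3, 11.7 and 17.9 CPM after amphetamine and 8.2, 18.7, 14.2 and 10.9 CPM after saline (log2 fold change 0.12, 95% interval -0.51 to 0.75). The region at chr12:85473473-85473672, which overlaps the first bases of the printed Fos sequence, measured 9.22, 21.1, 8.05 and 17.1 CPM against 9, 21, 21.2 and 12.3 CPM. In both groups the values of this region ranged over 2-fold between libraries, more than the group means differed (-0.21, interval -0.98 to 0.57).

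At the Npas4 promoter, the region chr19:4989939-4990138 measured 15.5, 27.7, 16.3 and 20.3 CPM after amphetamine and 14.2, 25.0, 24.9 and 28.8 CPM after saline (log2 fold change -0.21, interval -0.78 to 0.35). At Nr4a1, the region chr15:101266645-101266844 measured 15.2, 26.7, 17.8 and 21.8 CPM against 11.4, 13.9, 24.3 and 15.1 CPM (0.33, interval -0.26 to 0.92). Per1, a repressor of the circadian clock that CREB and glucocorticoids also induce, held 2 promoter regions. The region chr11:69099953-69100152 of the printed promoter measured 21.4, 33.2, 23.9 and 24.9 CPM after amphetamine and 16.4, 31.0, 29.7 and 21.9 CPM after saline (0.07, interval -0.44 to 0.58). The region of the other promoter window, chr11:69098739-69098938, measured 45.8, 44.2, 39.2 and 53.8 CPM against 37.8, 43.4, 45.5 and 43.5 CPM (0.10, interval -0.26 to 0.45). None of these groups of libraries was separated.

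Within 50 kb of Fos, 18 regions were tested, and 1 of them had an unadjusted p under 0.05. That region, chr12:85472475-85472674, lies 1215 bp before Fos and measured 0.595, 4.94, 3.39 and 3.90 CPM after amphetamine and 3.80, 8.94, 8.45 and 5.79 CPM after saline (log2 fold change -1.05, unadjusted p = 0.0489, adjusted p = 1). Over all promoters with a tested region, 3672 regions lay on a window with TGACG and 7902 on a window without it. Of the former 6 were higher and 41 lower at an unadjusted p under 0.05 (1.28%), and of the latter 15 were higher and 80 lower (1.2%). The median log2 fold change was -0.114 with the motif and -0.13 without it.

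Immediate early effectors gave the same count of calls, 0 of 20. Arc, which regulates AMPA receptors at synapses, measured 65.5, 80.1, 58.2 and 79.5 CPM after amphetamine and 81.6, 69.4, 65.2 and 90.5 CPM after saline, and the groups overlapped (log2 fold change -0.12 ± 0.15, 95% interval -0.44 to 0.20). A region 342 bp outside Arc, chr15:74672913-74673112, measured 3.27, 7.41, 3.39 and 5.46 CPM against 6.80, 8.62, 10.8 and 8.69 CPM (-0.82, unadjusted p = 0.0376, adjusted p = 1). The members with the lowest p were Ier5 (-0.55 ± 0.28, unadjusted p = 0.0623) and Plk2, a kinase of synaptic scaling (-0.53 ± 0.28, unadjusted p = 0.0804). Per1 as a whole measured 267, 283, 241 and 341 CPM after amphetamine and 260, 258, 280 and 268 CPM after saline (0.08 ± 0.13). The median of the list was -0.03, and 18 of the 20 intervals lay within 2-fold.

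**Figure D3:**
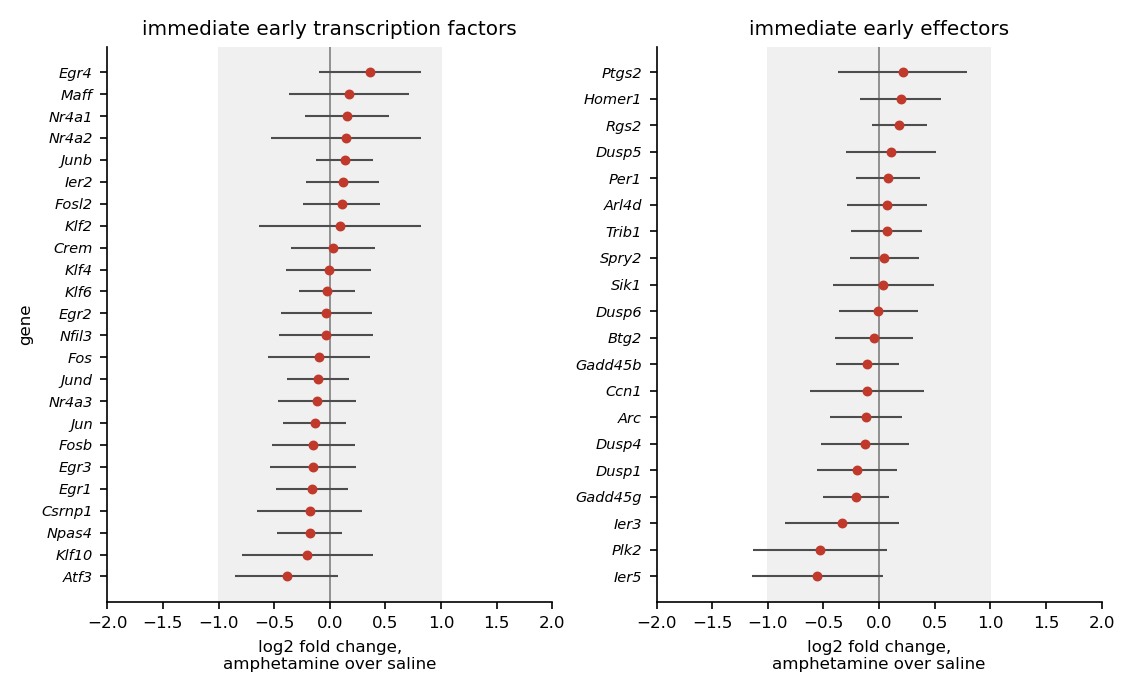
Log2 fold change (amphetamine over saline) with 95% interval of the 24 immediate early transcription factors and 20 immediate early effectors in PV nuclei at 60 min, sorted by value. The grey band marks 2-fold in either direction; every interval crosses 0, and those of Ier5 and Plk2 alone leave the band.

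Late response genes, of which Bdnf is the best known, were not called either (0 of 16). Bdnf, a neurotrophin, measured 13.8, 15.6, 17.6 and 13.7 CPM after amphetamine and 16.4, 13.0, 21.9 and 18.0 CPM after saline (log2 fold change -0.17 ± 0.23). The member with the lowest p was Rasgrp1, a Ras activator, with 69.1, 57.2, 76.6 and 46.6 CPM against 64.5, 47.2, 43.4 and 42.4 CPM (0.36 ± 0.18, unadjusted p = 0.059). Of the 14 genes of the glucocorticoid response, which an injection and handling can also engage, 0 were called. Zbtb16 had the lowest p among them, at 286, 286, 319 and 228 CPM against 251, 277, 259 and 162 CPM (0.24 ± 0.17).

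Among the 12 receptors of dopamine and noradrenaline, through which amphetamine acts, 0 were called. Drd3, a D2-like dopamine receptor, measured 30.6, 28.6, 30.4 and 42.0 CPM after amphetamine and 24.8, 19.3, 28.9 and 20.6 CPM after saline. Amphetamine library 2 and saline library 4 were the only pair of libraries that overlapped. Its log2 fold change was 0.46 ± 0.20 (unadjusted p = 0.0352, adjusted p = 1). Adra1d, an alpha1 adrenergic receptor, measured 24.0, 26.7, 33.6 and 26.5 CPM against 31.3, 45.1, 27.4 and 43.1 CPM (-0.40 ± 0.20, unadjusted p = 0.0632). Drd2 measured 26.2, 22.4, 21.1 and 21.0 CPM against 21.8, 13.1, 19.5 and 20.4 CPM (0.29 ± 0.21). Only 1 of these 12 genes had an interval within 1.5-fold.

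Genes of synaptic transmission had positive medians whose size and, in some settings, sign varied. The 13 genes of GABA synthesis and receptors had a median log2 fold change of 0.18, with 10 above 0. The 12 glutamate receptors had a median of 0.10, also with 10 above 0. Over all genes tested, 8218 of 16569 were above 0. Of both lists, 0 genes were called. Gria1, an AMPA receptor subunit, measured 336, 263, 357 and 233 CPM after amphetamine and 338, 248, 229 and 205 CPM after saline (log2 fold change 0.23 ± 0.18). The libraries with the highest Gria1, amphetamine libraries 1 and 3 and saline library 1, were those with the lowest share of counts at gene ends (26.4% to 27.2%). The part of that share in these medians was not tested. The GABA and glutamate medians were 0.0307 and -0.0637 with a term for the share, chosen after seeing the data, while a block for the replicate number gave -0.00107 and 0.0311. They were 0.0675 and -0.00499 without saline library 4, 0.0563 and 0.0202 without amphetamine library 3, and 0.00461 and -0.256 with regions at gene ends only. The 20 genes of cAMP and calcium signalling had a median of 0.06 and 0 calls, with Pde1b, a phosphodiesterase, at 0.21 ± 0.14 (unadjusted p = 0.159).

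**Figure D4:**
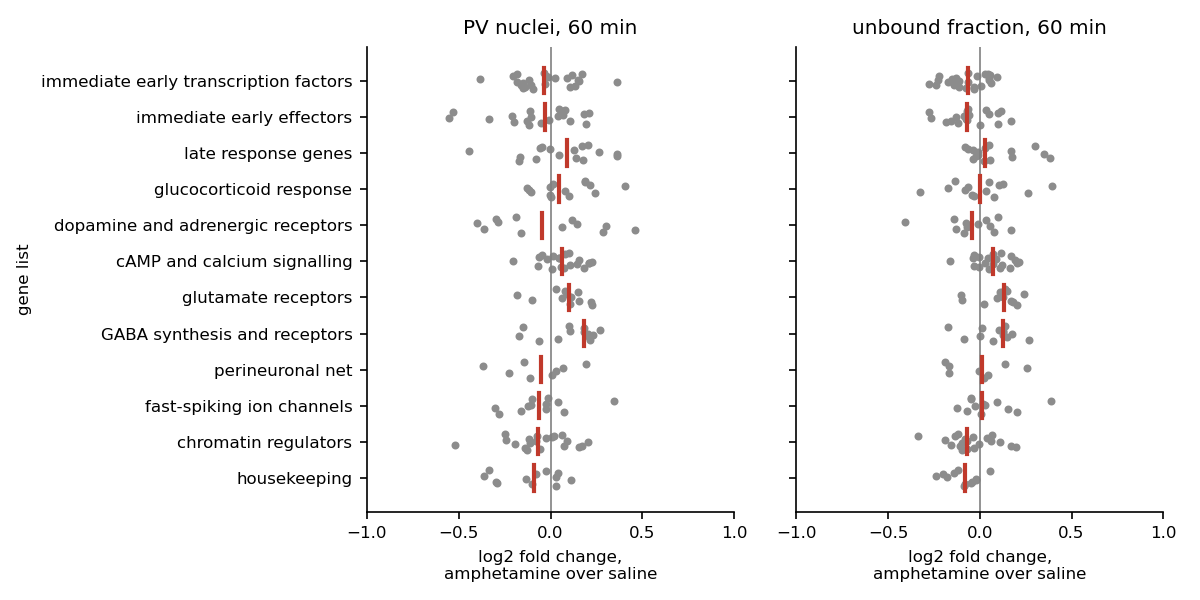
Log2 fold change (amphetamine over saline) of the members of 12 gene lists in PV nuclei and in the unbound fraction at 60 min. Points are genes and red bars are list medians; in PV nuclei the medians lie between -0.09 (housekeeping) and 0.18 (GABA synthesis and receptors), and no gene was called in either fraction.

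Genes that define the physiology of PV interneurons also held 0 calls. Of the 8 genes of the perineuronal net, the matrix that wraps these cells, Hapln4, a link protein, measured 41.1, 53.9, 48.9 and 40.2 CPM after amphetamine and 51.1, 76.1, 52.2 and 61.7 CPM after saline (log2 fold change -0.37 ± 0.16, unadjusted p = 0.0405, adjusted p = 1). Only amphetamine library 2 reached into the saline range. Without saline library 2, Hapln4 was at -0.24. Of the 12 ion channels of fast spiking, Kcna1 had the lowest p, with 60.8, 65.5, 74.0 and 52.1 CPM against 77.9, 97.0, 70.9 and 68.9 CPM (-0.30 ± 0.15, unadjusted p = 0.0626, adjusted p = 1). Kcnc1, the Kv3 channel that allows rapid repolarization, measured 67.3, 83.6, 79.3 and 54.8 CPM against 76.2, 110, 82.6 and 84.2 CPM (-0.28 ± 0.16). Of 20 chromatin regulators 0 were called, with Chd4, a nucleosome remodeller, at -0.25 ± 0.13 (unadjusted p = 0.0709). The 12 housekeeping genes had a median of -0.09 and 0 calls.

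The genes named next were not called. They are those with the lowest p among genes with a log2 CPM of at least 2 and all amphetamine libraries on one side of all saline libraries. Such separation held for 212 of the 16569 genes (1.28%), 107 above and 105 below. Highest in rank after amphetamine was Gda, guanine deaminase, an enzyme of purine breakdown that also binds PSD-95 (chromosome 19, 21391307 to 21472661). Gda measured 37.1, 37.5, 42.5 and 33.8 CPM after amphetamine and 30.0, 26.3, 23.2 and 22.5 CPM after saline (log2 fold change 0.58 ± 0.17, unadjusted p = 0.00348, adjusted p = 1). In the unbound fraction Gda was at 0.02 ± 0.11, and the difference between the fractions was 0.58 ± 0.18 (interaction, unadjusted p = 0.00442, adjusted p = 1), or 0.57 with libraries of one number as pairs (adjusted p = 1). Its promoter region, chr19:21472561-21472760, measured 9.82, 10.4, 11 and 8.57 CPM against 9.20, 8.94, 8.33 and 9.13 CPM (0.18). The region in the gene body at chr19:21429696-21429895 measured 5.95, 7.19, 9.11 and 2.34 CPM against 5.80, 3.02, 2.58 and 0.869 CPM (1.10, unadjusted p = 0.0479). The interaction and these regions hold the counts of PV nuclei by which Gda was chosen, so their p values are no separate support. The same holds for the regions of the genes named below.

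Ddc encodes the decarboxylase that makes dopamine and serotonin, and it too was among those named as higher. It measured 80.0, 80.1, 73.2 and 79.5 CPM after amphetamine and 68.2, 50.3, 69.6 and 55.9 CPM after saline (log2 fold change 0.36 ± 0.14, unadjusted p = 0.02, adjusted p = 1). Its region with the lowest p lay in the gene body (chr11:11820306-11820505; 12.2, 10.4, 13.1 and 17.1 CPM against 8.20, 9.05, 7.98 and 8.98 CPM). Lmx1a, a factor of dopaminergic neuron development, measured 27.6, 24.7, 37.1 and 26.5 CPM against 22.3, 17.2, 23.3 and 18.2 CPM (0.53 ± 0.20). In the unbound fraction Lmx1a was at 0.31 ± 0.10 (unadjusted p = 0.00838). Also named as higher were Mroh9, Sfxn1, a mitochondrial serine carrier, Fbxo28, Krt83, Tprg and Dthd1, with log2 fold changes of 0.46 (Tprg) to 0.94 (Krt83).

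Lowest after amphetamine was Fgf5, a fibroblast growth factor (chromosome 5, 98254184 to 98277033). It measured 6.55, 7.38, 10.7 and 5.48 CPM after amphetamine and 13.2, 23.1, 11.9 and 16.9 CPM after saline (log2 fold change -1.07 ± 0.30, unadjusted p = 0.00291, adjusted p = 1). Both of its tested regions lie at the start of the gene, and the one that overlaps the promoter, chr5:98254195-98254394, measured 4.76, 4.83, 5.93 and 3.12 CPM against 8.60, 14.8, 7.39 and 12.7 CPM (-1.17 ± 0.34, unadjusted p = 0.0039). In the unbound fraction Fgf5 was at 2.61 to 6.85 CPM, with a log2 fold change of -0.12 ± 0.32. Ssu72, a phosphatase of RNA polymerase II, was at -0.45 ± 0.15, Prps2, a synthetase of phosphoribosyl pyrophosphate, at -0.62 ± 0.22, and Hhatl at -0.63 ± 0.22. Nup50, of the nuclear pore, Dnajc9, a histone co-chaperone, and Itgb1bp1 were at -0.42, -0.41 and -0.37.

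For 2 of the genes named as lower, a single saline library and a single region carried the value. Kpna1, an importin alpha of nuclear import, measured 176, 179, 180 and 179 CPM after amphetamine and 199, 475, 216 and 204 CPM after saline (log2 fold change -0.62 ± 0.24). The high value of saline library 2 came from the region chr16:35981605-35981804, 1483 bp outside Kpna1 and in the promoter window of Gm15564, at 397 CPM against 115 to 164 CPM in the other 7 libraries and 113 CPM in the unbound library of the same number. Without saline library 2, Kpna1 was at -0.21 (unadjusted p = 0.0881). Sspn, sarcospan, measured 35.3, 44.2, 34.4 and 40.2 CPM against 45.4, 110, 48.3 and 49.8 CPM, and its region chr6:145932795-145932994 measured 74.9 CPM in saline library 2 and 10.8 to 26.9 CPM in the other 7. Without saline library 2, Sspn was at -0.31 (unadjusted p = 0.0609). Cln3, a lysosomal membrane protein, went from -0.54 to -0.38 without that library.

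**Figure D5:**
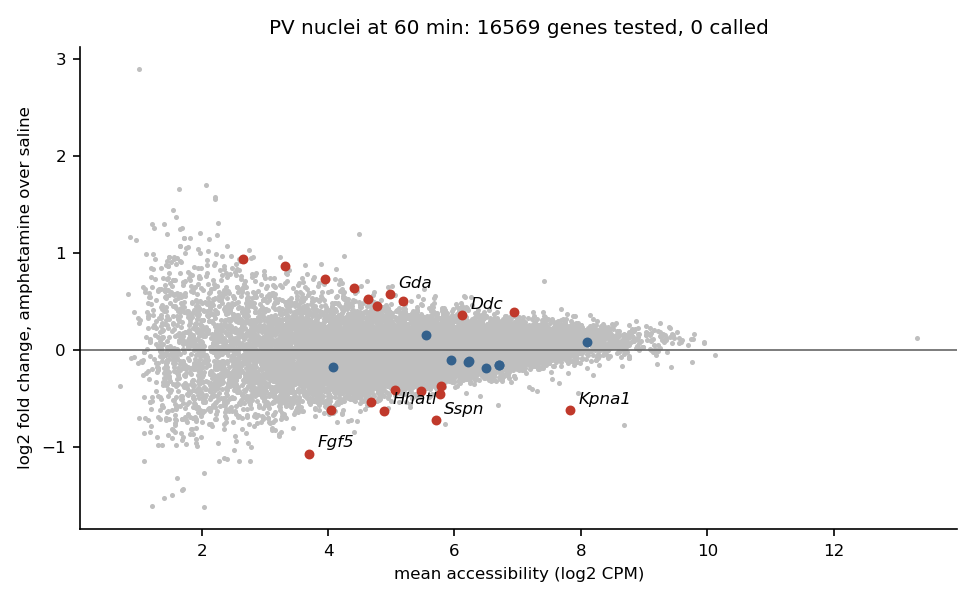
Log2 fold change (amphetamine over saline) against mean accessibility (log2 CPM) of the 16569 genes tested in PV nuclei at 60 min. Grey points are genes, red points the 20 genes chosen by rank and blue points Pvalb, Bdnf and the immediate early genes given per library; the grey cloud narrows with accessibility, and 0 genes were called.

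Single regions were named by the same kind of rule, with a log2 CPM of at least 0, and none was called. All amphetamine libraries lay above all saline libraries in 1510 of the tested regions and below them in 1421 (2.02% in all). The lowest p of all regions belonged to chr2:146398163-146398362 in the body of Ralgapa2, an inhibitor of Ral GTPases. It measured 5.36, 4.49, 6.57 and 6.24 CPM after amphetamine and 0.80, 1.08, 1.64 and 1.74 CPM after saline (log2 fold change 2.06 ± 0.42, unadjusted p = 0.000209, adjusted p = 1). In the unbound fraction the same region was at 0.49 ± 0.30. A region in Spock3, a proteoglycan of the extracellular matrix (chr8:63169369-63169568), measured 10.7, 9.55, 14 and 3.90 CPM against 3.80, 3.34, 2.82 and 2.61 CPM (1.65 ± 0.38), and was at 1.19 ± 0.40 in the unbound fraction (unadjusted p = 0.00736). A region in Akap6, an anchor of protein kinase A (chr12:52847121-52847320), measured 6.84, 5.05, 9.11 and 3.90 CPM against 2.60, 2.05, 1.53 and 1.16 CPM (1.8 ± 0.42). Of the 10 named as higher, those in Ralgapa2, Stap1, Eps8, Dsc3, Spock3, Akap6 and Fer lay in gene bodies, and the others lay outside genes.

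On the lower side, the lowest p belonged to a region of the Y chromosome, chrY:90765519-90765718, 20435 bp from Gm52481. It measured 37.5, 37.1, 36.7 and 46.8 CPM after amphetamine and 63.6, 81.7, 92.7 and 54.8 CPM after saline (log2 fold change -0.90 ± 0.19, unadjusted p = 0.00023, adjusted p = 1). In the unbound fraction it measured 71.1, 43.1, 47.3 and 82.0 CPM against 84.7, 115, 86.0 and 99.6 CPM (-0.67 ± 0.18, unadjusted p = 0.00148). The level did not follow the 4 Y-linked genes: saline library 2, with 0.865 counts per M on those genes, had 81.7 CPM here. A region 231 bp from Tmem132c, in its promoter window (chr5:127241395-127241594), measured 1.19, 1.8, 1.70 and 2.34 CPM against 3.00, 5.71, 5.16 and 8.11 CPM (-1.69 ± 0.44). A region in Syt11, a synaptotagmin (chr3:88758247-88758446), measured 5.65, 8.31, 6.57 and 5.46 CPM against 11.6, 12.4, 17.0 and 14.2 CPM (-1.05 ± 0.29), and was at -0.12 ± 0.20 in the unbound fraction. Most other named regions rested on few counts, with a count of 0 in at least 1 library for those in Stap1, Gon4l and Rubcnl.

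Regions split by position in unequal ways, again without a call. The 11574 tested regions on promoter windows had a median log2 fold change of -0.12, with 21 higher and 121 lower at an unadjusted p under 0.05 (1.23%). Regions in gene bodies, 82945 in number, had a median of -0.003, with 1111 higher and 801 lower, and the 50584 regions outside genes a median of 0.04, with 945 higher and 435 lower. The share of counts at gene ends, which holds many of the same counts as the promoter windows, was also lower on average after amphetamine (mean 29.1 ± 3.51% after amphetamine and 31.4 ± 3.03% after saline, SD, n = 4 each; two-sided exact permutation p = 0.343), within the spread between libraries, and its part in the split was not tested. With a term for that share the regions at an unadjusted p under 0.05 were 1474 higher and 1613 lower.

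Whether amphetamine acted differently in PV nuclei than in the unbound fraction was tested as an interaction. It called 0 of 17110 genes (0%; 76 at an unadjusted p under 0.05, and 84 with DESeq2) and 0 of 198998 regions (0%; 4139, and 4524 with DESeq2). The unbound fraction is the supernatant of the same step, but the labels do not say that libraries of the same number share a mouse. The main fit left them unpaired. Same-numbered libraries correlated by 0.0813 to 0.597 in their deviations from the group means, and libraries of different numbers by -0.365 to 0.218. Y-linked counts were 444 to 1039 in unbound amphetamine libraries 1 and 2 and saline libraries 4 and 5, and 8 to 24 in the others. The high and low classes were thus the same by number in both fractions. Taken as pairs, same-numbered libraries gave 0 called genes and 230 at an unadjusted p under 0.05, and 0 called regions. The median SE of genes was then 0.18, against 0.23 unpaired. In the unbound fraction on its own, 0 of 16892 genes were called by edgeR (0%; 606 at an unadjusted p under 0.05, lowest adjusted p = 0.97), and 0 by DESeq2 (594). The immediate early factors measured the same way there had a median of -0.06, with Fos at -0.03 ± 0.12, Npas4 at -0.17 ± 0.09 and Arc at 0.0009 ± 0.08. The interaction of Fos was -0.06 ± 0.26 and that of Npas4 -0.0001 ± 0.15; as pairs they were -0.05 and 0.02. In the libraries taken at 24 h, on a table of their own, 0 of 16713 genes were called by edgeR in PV nuclei (0%; 627 at an unadjusted p under 0.05) and 0 by DESeq2 (351). The edgeR fit adjusted for the Iso1 or Iso2 tag in the titles. Only amphetamine library Iso1-1 bears the Iso1 tag, so it did not inform the treatment contrast, which rests on the Iso2 libraries. Without this adjustment edgeR called 0 of 16243 genes (529 at an unadjusted p under 0.05). In the adjusted fit Fos was at 0.06 ± 0.20, Npas4 at 0.15 ± 0.13, Gda at 0.07 ± 0.24, Fgf5 at 0.46 ± 0.33 and Sspn at -0.49 ± 0.20 (unadjusted p = 0.0182). The times differ in more than the hour of collection, so these values stand side by side and were not tested against each other.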

How the data were processed

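The deposited tables hold raw counts of ATAC-seq reads per region, which the authors made with cutadapt 1.8.3, Bowtie2 2.3.4.3, MACS2 2.1.2, bedtools 2.25.0 and DESeq2 1.18.1 on mm10, per the submitters' processing notes. How peaks were merged and whether reads were shifted for Tn5 are not given in the sources used here. Regions were assigned to 21887 protein-coding genes of RefSeq (body and 2000 bp on either side), and counts were summed per gene; regions shared by neighbouring genes counted for each. Counts were filtered (filterByExpr, minimum count 10), scaled by TMM and fitted with edgeR 4.0.16 (quasi-likelihood, two-sided, Benjamini-Hochberg adjustment over all features) in R 4.3.3. DESeq2 1.42.0 and limma 3.58.1 gave alternatives. Fits were also run on simulated counts, drawn independently per library and with changes planted in well-counted features only. These runs do not bear on less counted regions or on effects shared across a library, and no result rests on them. Members and lists were chosen with earlier results of these data known. Named genes and regions are, since none was called, the 10 with the lowest p in each direction among those with separated groups and a log2 CPM of at least 2 (genes) or 0 (regions, at most 1 per nearest gene); each list is described by up to 4 members with the lowest p. Promoter windows are RefSeq's 250 bases before to 50 after a start of the gene, which can lie inside the gene span. Each library was taken as 1 mouse. Replicate numbers did not pair the treatment groups, and the labels do not say that pulled-down and unbound libraries share a mouse. The interaction was therefore fitted unpaired, with a fit that paired same-numbered libraries as an alternative. The 24 h fit adjusted for the Iso tag in each title, and a fit without this adjustment was an alternative. Some results that the rule would name are not reported here.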

Additional observations from a re-analysis of the deposited data

Results flagged for a closer look

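A library far from the other 3 of its group was found in 10 of 132 groups of 4 libraries (7.58%). The rule flags 5% by chance, but only for independent groups that were not selected. Many of these groups were of genes and regions named for their separated libraries, so the shares are not compared. Counts on Y-linked genes were left out of the search. Saline library 2 stood high for Kpna1 (475 CPM, next 216), Sspn (110 CPM, next 49.8) and Cln3 (38.2 CPM, next 27.2), and low for Dthd1 (4.67 CPM, next 7.94). Amphetamine library 4, the shallowest, stood high for Dthd1 (21.9 CPM, next 12), for the region in Dsc3 (6.24 CPM, next 4.24) and for the Y-chromosome region near Gm52481 (46.8 CPM, next 37.5). Amphetamine library 2 stood high for the region near Slc5a7 (10.9 CPM, next 6.99). Amphetamine library 3 stood low for Ddc (73.2 CPM, next 79.5), in a group that otherwise spans less than 1 CPM. Saline library 4 stood high for Nr4a1 (55.6 CPM, next 41.8).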

How the results depend on the processing

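The counts of called genes and regions in PV nuclei at 60 min stayed at 0 under all 22 gene and 20 region alternatives, with 97 to 1105 genes and 2069 to 8561 regions at an unadjusted p under 0.05 when 1 library was left out. With all 16 libraries in one fit these were 725 genes and 12630 regions, with limma voom and quality weights 729 and 7207, and with a minimum count of 30 there were 1077 regions. With the replicate number as a block, although same-numbered libraries correlated by only 0.0396 to 0.261, 0 genes (507 at an unadjusted p under 0.05) and 0 regions (3788) were called. The same block called 2 genes in the unbound fraction (Gm20594 and Zfp804b, lowest adjusted p = 0.0079 by edgeR). With same-numbered libraries as pairs the interaction had 0 calls, with 230 genes and 4871 regions at an unadjusted p under 0.05. At 24 h, leaving out 1 library gave 0 to 4 called genes: 4 without saline Iso2-1, and 1 each without saline Iso2-2 and Iso2-3. Kpna1 was at 0.15 with regions at gene ends only and at 0.00837 with gene bodies only, both of which leave out the region that carried its value, and Grik1 was at -0.60 with gene ends only, where the cause was not tested. Among the other values of single genes, regions and library measures, 229 moved by more than their spread and 8795 did not. List medians near 0 changed sign under several settings, and the cause was not tested: with the term for counts at gene ends (glutamate receptors -0.0637, immediate early transcription factors 0.0636), with the replicate block (late response genes -0.0624, GABA genes -0.00107, immediate early transcription factors 0.0326), with voom (dopamine and adrenergic receptors 0.13) and with gene ends only (glutamate receptors -0.256), among others. The terms for Y-linked counts, endothelial markers and counts at gene ends were chosen after seeing the data. For single regions, 22.5% had an interval within 2-fold, and the parts of depth and of the spread between libraries in this were not separated.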
